A study of Mus musculus with 8 samples.

Results

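The mouse has 3 Tribbles genes, Trib1, Trib2 and Trib3, and all 3 were measured in the liver of pregnant mice and of their fetuses after the mothers were given less food. They were found by gene name among the non-control probes of an Agilent mouse 44K array of 60-base probes. This gave 5 of 41174 probes, 1 for Trib1, 2 for Trib2 and 2 for Trib3, out of 28104 genes on the array. All animals were C57BL/6J mice. Control mothers ate chow freely, and mothers on food restriction (FR) were given 50% of the amount eaten by controls between gestation days 10 and 17. On gestation day 18 the liver of 6 mothers in each diet group was collected, with that of 2 male fetuses from each litter. The fetuses themselves were exposed only through their mothers. RNA was pooled within a diet. Each array carried both diets, with the control in Cy3 and FR in Cy5 or the reverse. The 8 arrays thus gave 4 pool pairs. Slide 1 held maternal pools of 6 animals and fetal pools of 6, and slide 2 held 2 pairs of fetal pools of 3. The labels do not say which mothers gave fetuses to which pool, so the fetal pools may share mothers or RNA, and every p-value measures only the spread between these pools.

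Tribbles proteins are pseudokinases, which keep the fold of a protein kinase but have little or no catalytic activity and act as scaffolds. A C-terminal motif recruits the ubiquitin ligase COP1, and the pseudokinase domain of Trib1 and Trib2 presents C/EBP alpha to it for degradation. Trib1 is known in liver for its effect on lipid synthesis and blood lipids, Trib2 as a leukemia gene that acts on the same C/EBP factor, and Trib3 as a gene induced by fasting and by the transcription factor ATF4 under stress, whose product can bind the insulin-signalling kinase Akt.

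The first 30 bases of each 60-base probe are shown here because the probes of the same gene read different stretches of its transcript and did not give the same values. Positions come from the annotation in the slide 1 files (mm9), and the strand is that of the probe. All 5 probes are listed under 1 RefSeq transcript per gene: NM_144549 for Trib1, NM_144551 for Trib2 and NM_175093 for Trib3. Which part of the transcript each one reads was not analysed here.
Trib1 probe A_52_P573552 (chr15:59487662-59487721, plus strand): atctttaagggctatgcctagggagactac
Trib2 probe A_52_P220810 (chr12:15799009-15799068, minus strand): actctggcttttctattgctgtatgataca
Trib2 probe A_51_P103819 (chr12:15800004-15800061, minus strand): agccttggcattgcactgttagcatttaac
Trib3 probe A_51_P331570 (chr2:152163355-152163414, minus strand): aaagaggcatttgactcaaggaatagtctg
Trib3 probe A_52_P600274 (chr2:152164025-152164084, minus strand): aatcctcttgcatccctggttgagagagga

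The promoter table of RefSeq (GRCm38.p6, 250 bases before to 50 after the start of a gene) held Trib2 and Trib3. It was searched on both strands for TGATGNAA, the composite element read by ATF4 with C/EBP or CHOP partners. Trib3 had 1 match, on the reverse strand, from base 15 after the start (chr2:152344028-152344057, minus strand; the match is in capitals). Trib2 had 0 matches in its window.
Trib3 start region: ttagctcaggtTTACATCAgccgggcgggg
The element occurred in 3.97% of the 32851 windows of this length in the table, and a match describes the letters only.

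The tissue labels were borne out by marker genes. Alb, the main plasma protein of hepatocytes, had log2 levels between 17.2 and 17.6 in all control pools, whereas Afp, its fetal counterpart, was at 7.85 in control mothers and between 17.0 and 17.1 in control fetuses. Xist and the Y-linked gene Ddx3y separated the female mothers from the male fetuses. Of all probes, 25468 were well above background in both dyes of all 8 arrays, and the 5 Tribbles probes were among them, with none saturated. The median raw signal per array was between 69.1 and 284 in Cy3 and between 122 and 310 in Cy5, over backgrounds of 46 to 68. On slide 1 the image software marked between 11.8% and 19.7% of spots as non-uniform in Cy3, against at most 0.00692% on slide 2. These spots were kept. They include Trib1 on both arrays of the fetal pools of 6 and on the maternal array with FR in Cy5.

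Trib3 was higher under FR in every pool pair and with both probes. The brighter probe, A_51_P331570, gave a log2 ratio of FR over control of 2.50 in the mothers, a 5.66-fold higher level. In the fetuses it gave 0.68 in the pools of 6, 0.79 in the first pools of 3 and 0.88 in the second. The 3 fetal values lay close together and all 6 fetal arrays were above 0, from 0.51 to 1.08. The fetal mean of 0.79 ± 0.10 (SD, n = 3), a 1.73-fold rise, passed the test over all probes (limma, adjusted p = 0.00465). It also passed in the 2 pairs of pools of 3 alone, at 0.84 with an adjusted p of 0.0474.

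The dimmer Trib3 probe, A_52_P600274, gave smaller values in the same direction. Its log2 ratio was 1.02 in the mothers, 0.27 in the fetal pools of 6, and 0.26 and 0.16 in the pools of 3. The fetal mean of 0.23 ± 0.06 (SD, n = 3), a 1.17-fold rise, passed with an adjusted p of 0.0278. The call was lost without the fetal pools of 6 (adjusted p = 0.139), without the first pools of 3 (0.0974), and without loess (0.165). The raw signal of this probe went down to 73.7 over a background of 47, where the brighter probe's lowest was 193 over 48. With a normexp offset of 10 in place of 50, the dimmer probe read 0.27 in the fetuses and 1.42 in the mothers, and the brighter probe 0.83 in the fetuses. With the processed signals of the image software the dimmer probe read 0.39 in the fetuses and 1.85 in the mothers. Why the probes differ was not tested.

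The maternal value of the brighter Trib3 probe rests on 1 array, with FR in Cy5. On the maternal array with FR in Cy3 the Cy5 spot of this probe was marked non-uniform and was left out. The fetal values average both dye orientations. Their arrays read 0.51, 0.55 and 0.69 with FR in Cy5, against 0.86, 1.03 and 1.08 with FR in Cy3. With the left-out maternal spot kept, the mean of both maternal arrays was 3.04 and both were past 2-fold. The dimmer probe was read on both maternal arrays, at 0.88 and 1.15. With 1 pool per diet the maternal response has no test. Ranked from the highest of 28323 probes, the brighter Trib3 probe stood at place 20 and the dimmer at 373.

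Trib1 was above control under FR in the mothers and below it in the fetuses. Its log2 ratio was 0.75 in the mothers, a 1.68-fold higher level under FR. It was -0.68 in the fetal pools of 6, and -0.91 and -0.47 in the pools of 3. All 6 fetal arrays were below 0 and both maternal arrays above it. The arrays of a pair read the same pools, and the share of all probes with such opposite signs was not counted. The maternal arrays gave 0.42 with FR in Cy5 and 1.08 with FR in Cy3, a wide gap between the dye orientations, and Trib1 stood at place 717 of 28323 from the highest.

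The fetal mean for Trib1 was -0.69 ± 0.22 (SD, n = 3), which is 0.622 of the control level, and it passed the test (adjusted p = 0.00989). Without the fetal pools of 6 the value was the same, -0.69, but missed the threshold (adjusted p = 0.0614). With the Cy3 non-uniform spots left out, Trib1 had no value in the fetal pools of 6 and none in this test, and the maternal value of 1.08 then came from the exchanged array alone.

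Trib2 had small ratios below control in the fetuses. The brighter probe, A_52_P220810, gave 0.14 in the mothers, -0.28 in the fetal pools of 6, and -0.27 and -0.18 in the pools of 3. All 6 fetal arrays were below 0, and the maternal arrays read 0.27 and -0.0013. The fetal mean of -0.24 ± 0.06 (SD, n = 3), or 0.845 of the control level, passed with an adjusted p of 0.0233. This call was lost without the fetal pools of 6 (adjusted p = 0.124), without the first pools of 3 (0.0835) and without loess (0.0592).

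The second Trib2 probe, A_51_P103819, was the dimmest of the 5, with raw signals from 53.1 upwards over backgrounds of 41 to 67.5. It gave 0.03 in the mothers, -0.09 in the fetal pools of 6, and -0.23 and -0.24 in the pools of 3. The fetal mean of -0.19 ± 0.08 (SD, n = 3) had an adjusted p of 0.0566. It passed in 5 of 12 other settings, among them the processed signals, which gave -0.52 (adjusted p = 0.00833).

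Across the family, 4 of the 5 probes passed the fetal test over 3 pool pairs, 2 higher and 2 lower, where 25.4% of the 30811 probes tested passed (11% higher and 14.4% lower). In the 2 pairs of pools of 3 alone, the brighter Trib3 probe passed, where 3.47% of 31241 probes did. In the mothers, none of the 4 probes read on both arrays was past 2-fold on both, where 0.982% of 28303 probes were past it upwards and 1.02% downwards. Past 1.5-fold on both, the dimmer Trib3 probe was counted, where 2.91% of probes were past it upwards and 3.42% downwards.

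**Figure D1:**
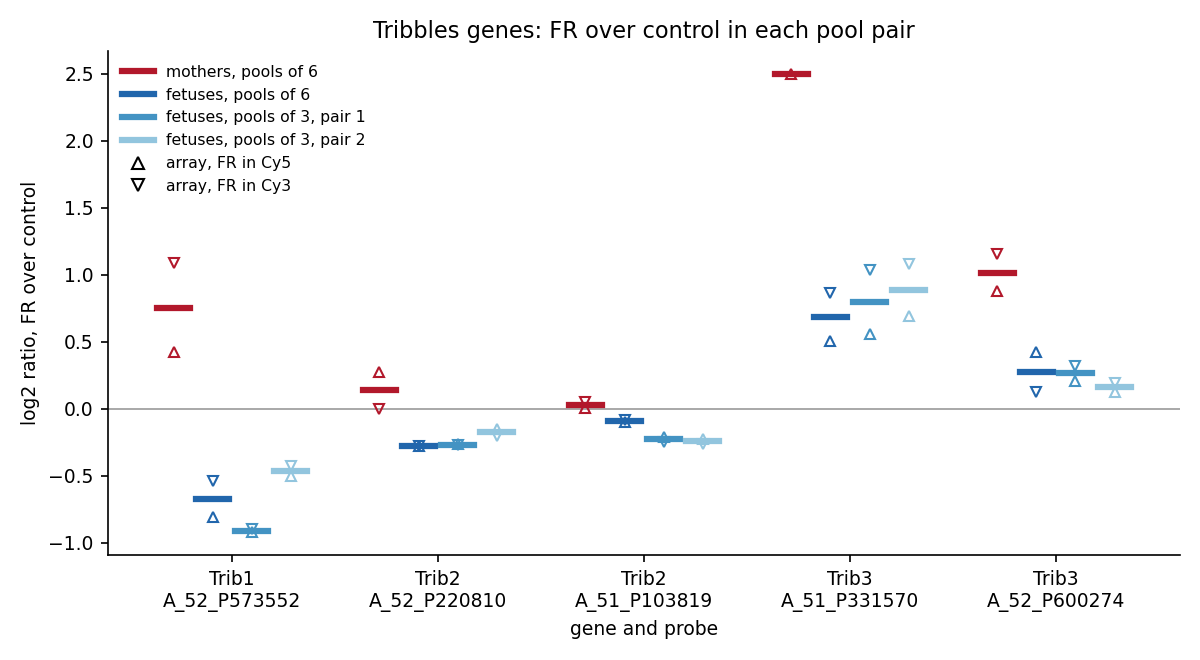
Log2 ratio of FR over control (y axis) for the 5 Tribbles probes (x axis). Bars are pool pairs and triangles single arrays, pointing up where FR was labelled with Cy5 and down where it was labelled with Cy3. Trib3 lies above 0 in every pool pair, and Trib1 lies above 0 in the mothers and below 0 in all 3 fetal pool pairs.

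The response to FR was then compared between mothers and fetuses directly, as the maternal log2 ratio minus the fetal mean. With 1 maternal pair, the spread was taken from the fetal ones. Trib1 had no value in this test when spots non-uniform in Cy3 were left out, since both arrays of the fetal pools of 6 then lacked it. The 1 maternal array of the brighter Trib3 probe had FR in Cy5, while each fetal value averages both dye orientations. Of the 5 probes 3 passed, all with the maternal value higher, where 3.2% of 27473 probes passed (1.6% in each direction). The brighter Trib3 probe, with its maternal value from 1 array, differed by 1.71 (95% CI 1.42 to 2.00, adjusted p = 0.00944) and the dimmer by 0.78 (95% CI 0.53 to 1.04, adjusted p = 0.0282). Trib1 differed by 1.44 (95% CI 0.98 to 1.90, adjusted p = 0.028). The difference of the brighter Trib2 probe was 0.38 (95% CI 0.13 to 0.63) with an adjusted p of 0.117, and that of the other was 0.21 (95% CI -0.06 to 0.49) with an adjusted p of 0.354.

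These 3 calls were lost without the fetal pools of 6, which share slide 1 with the mothers, and held without either pair of pools of 3. Without the pools of 6 the differences were 1.66, 0.80 and 1.44, with adjusted p-values of 0.0932, 0.133 and 0.136. The dimmer Trib3 probe was also lost without loess (adjusted p = 0.118), and gave 1.47 with the processed signals (adjusted p = 0.00702). Within slide 1 alone they were 1.82, 0.74 and 1.43. A fit with slide as a fixed block, whose differences are those within slide 1, gave adjusted p-values of 0.141, 0.234 and 0.225. In each of these 2 fits 0 probes of the array passed, although 4518 and 3238 had an unadjusted p under 0.05.

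In control liver, Trib1 was higher in mothers than in fetuses, and the other 2 genes did not pass. The log2 control level of Trib1 was 10.9 in the mothers, 10.2 in the fetal pools of 6, and 9.94 and 9.95 in the pools of 3. The difference of 0.84 (95% CI 0.39 to 1.29), or 1.79-fold, passed with an adjusted p of 0.0208, where 32.5% of 30527 probes passed (17% higher in mothers and 15.5% lower). Against each fetal pool the mothers were higher, but the call was lost without either pair of the pools of 3 (adjusted p = 0.0908 and 0.0578) and with the processed signals (0.057). Within slide 1, with 1 maternal against 1 fetal pool, the difference was 0.67. When spots non-uniform in Cy3 were left out, Trib1 had no level in the fetal pools of 6 and no value in this test.

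The control level of the brighter Trib3 probe was 9.29 in the mothers, 9.02 in the fetal pools of 6, and 9.21 and 9.06 in the pools of 3. The difference of 0.19 (95% CI -0.22 to 0.60) had an adjusted p of 0.423. Its maternal level is from 1 array, and with the left-out spot kept the difference was -0.095. The dimmer probe was at 7.76 in the mothers and between 7.67 and 8.15 in the fetal pools (difference -0.17, adjusted p = 0.608). The maternal control level of either probe thus lay within or just above the fetal ones.

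The brighter Trib2 probe had control levels of 8.10 in the mothers, 8.96 in the fetal pools of 6, and 8.38 and 8.46 in the pools of 3. All 3 fetal pools were higher than the mothers, but the fetal pools themselves were 0.31 (SD) apart, and the difference of -0.49 (95% CI -1.17 to 0.18) had an adjusted p of 0.219. Within slide 1, with 1 maternal against 1 fetal pool, it was -0.85. The other Trib2 probe was at 6.92 in the mothers and between 6.91 and 7.16 in the fetuses (difference -0.14, adjusted p = 0.588).

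Under FR the maternal levels of Trib1 and of the brighter Trib3 probe stood above the fetal ones, in a test that 9015 of 30974 probes passed. The FR level of the brighter Trib3 probe was 11.8 in the mothers and between 9.70 and 10.0 in the fetuses, a difference of 1.90 (adjusted p = 0.00164), with the maternal level from 1 array. The dimmer Trib3 probe differed by 0.61 and did not pass (adjusted p = 0.0834). That of Trib1 was 11.6 in the mothers and between 9.02 and 9.52 in the fetuses, a difference of 2.28 (adjusted p = 0.00189). These levels rest on scaling that gives all arrays the same distribution of mean intensity. Without it the median probe was 0.91 lower in the mothers, and the control differences turned to -0.13 for Trib1, above that median, and to -0.97 for the brighter Trib3 probe, just below it.

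**Figure D2:**
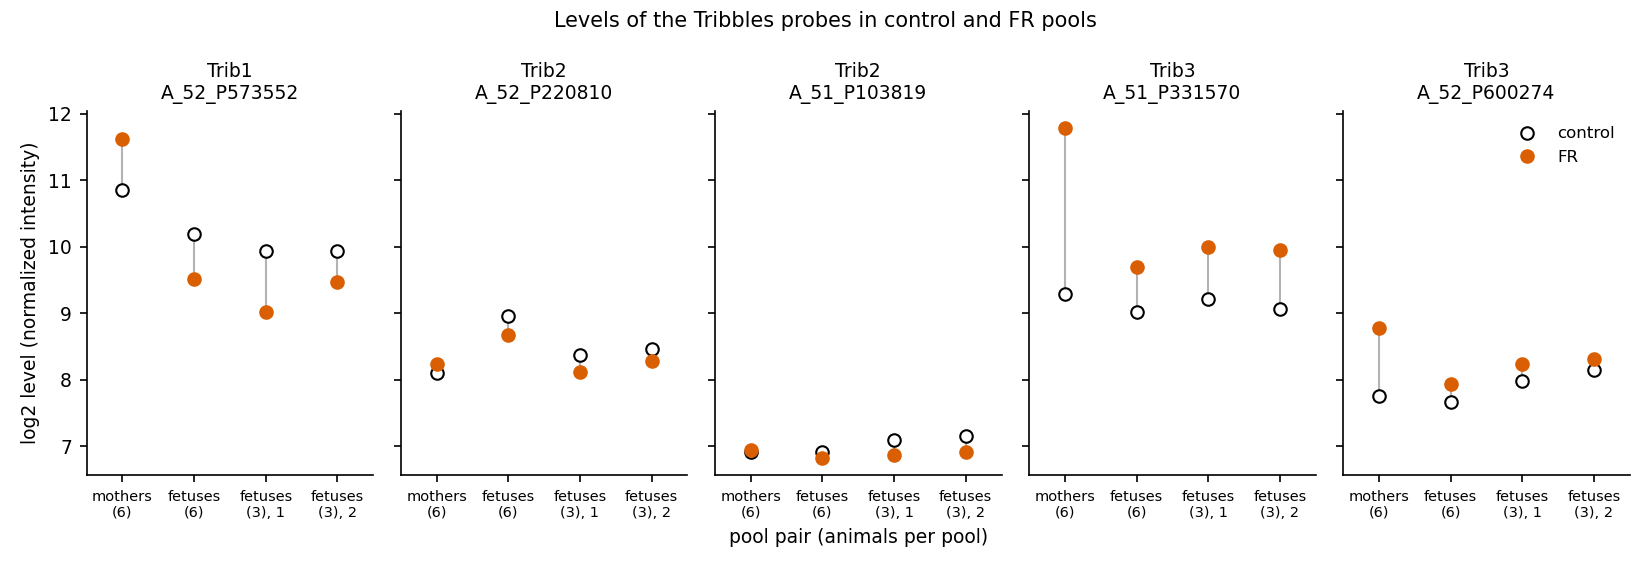
Log2 normalized intensity (y axis) of each Tribbles probe in the control pool (open circle) and the FR pool (filled circle) of each pool pair (x axis, with the number of animals per pool). Maternal and fetal control levels of Trib3 lie close together, at 9.29 against 9.02 to 9.21 for the brighter probe, while the maternal FR level stands at 11.8. Both maternal levels of that probe are from 1 array.

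The proteins that Tribbles bind or act through were taken as a list of 19 genes, each read from its brightest probe. In the fetuses 2 rose and 8 fell, where 25.8% of 21090 genes tested passed, 11.5% up and 14.4% down. The median log2 ratio was -0.10, against 0.01 over all genes. Acacb, the acetyl-CoA carboxylase of the outer mitochondrial membrane, fell most. It gave -1.80 in the fetal pools of 6, and -1.50 and -1.22 in the pools of 3, a mean of -1.51 ± 0.29 (SD, n = 3, adjusted p = 0.00467). Its cytosolic relative Acaca fell to -0.27 ± 0.15 (adjusted p = 0.0433).

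The C/EBP factors, the substrates and partners of the COP1 complex, moved apart. Cebpa, the C/EBP factor of mature hepatocytes and granulocytes, fell in the fetuses with -0.70, -1.07 and -0.34 in the 3 pool pairs (mean -0.71 ± 0.37, SD, n = 3, adjusted p = 0.023) and read -0.07 in the mothers. Cebpd, which responds to fasting and glucocorticoids, rose in the fetuses by 0.62, 0.70 and 0.77 (mean 0.70 ± 0.07, SD, n = 3, adjusted p = 0.00465) and read 2.14 in the mothers. Cebpb rose by 0.29 ± 0.06 (adjusted p = 0.0166) and read 1.91 in the mothers. Cebpb and Cebpd were the 2 genes of this list past 2-fold on both maternal arrays, where 0.978% of 19428 genes were past it upwards and 1.15% downwards, and 0 genes of the list were past it downwards.

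Cebpb and Cebpd were also the 2 members whose maternal response was the higher one, by 1.62 (adjusted p = 0.00944) and 1.44 (adjusted p = 0.0102), where 3.7% of 18914 genes passed, 1.78% in this direction and 1.91% in the other. Cop1, the ligase itself, fell in the fetuses to -0.31 ± 0.14 (adjusted p = 0.0271) and read -0.04 in the mothers. Dda1, a subunit of the DET1 complex that carries COP1, fell to -0.31 ± 0.01 (adjusted p = 0.0111). Of the kinases bound by Tribbles, Map2k1, which activates ERK, fell to -0.40 ± 0.10 (adjusted p = 0.0116) and Akt2, the Akt of insulin-responsive tissues, to -0.34 ± 0.09 (adjusted p = 0.0137). Cebpb, Acaca, Cop1, Dda1 and Akt2 were chosen for naming after their values were seen. In the pools of 3 alone Cebpd rose and Acacb fell, where 3.41% of 21348 genes passed, 1.67% up and 1.73% down.

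The second list held 27 factors and targets of the integrated stress response, the pathway that induces Trib3 through ATF4. Of 26 measured, 6 rose and 5 fell in the fetuses, where 11.5% of all genes rose and 14.4% fell, and the median was 0.06. Ddit4, an inhibitor of mTORC1, rose to 1.31, 1.41 and 0.93 in the 3 pool pairs (mean 1.22 ± 0.25, SD, n = 3, adjusted p = 0.00496). Cth, an enzyme that makes cysteine, rose by 0.91 ± 0.34 (adjusted p = 0.0112), and Psph, the last enzyme of serine synthesis, by 0.60 ± 0.28 (adjusted p = 0.0199). Nupr1, a stress-responsive nuclear protein, fell to -1.33, -1.37 and -1.10 (mean -1.27 ± 0.15, SD, n = 3, adjusted p = 0.00425). Atf4 itself, whose activity is controlled largely by translation, fell to -0.23 ± 0.03 (adjusted p = 0.0216).

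In the mothers 2 of the 26 were past 2-fold upwards on both arrays and 0 downwards, where 0.978% and 1.15% of all genes were. They were Chac1, an enzyme that degrades glutathione, at 1.76, and Herpud1, a membrane protein of the endoplasmic reticulum, at 1.21. Asns, the asparagine synthetase, read 1.06. Among all genes 1.78% passed with the maternal response higher than the fetal and 1.91% with it lower. The maternal response was the higher one for Chac1 by 1.93 (adjusted p = 0.013), Eif4ebp1, an inhibitor of translation initiation, by 1.03 (adjusted p = 0.0146) and Asns by 0.86 (adjusted p = 0.0258). It was the lower one for Gdf15, a stress-induced hormone, by -1.29 (adjusted p = 0.0197). These 5 were named after their values were seen. Chac1 read -0.11, -0.39 and -0.01 in the fetal pool pairs (mean -0.17 ± 0.20, SD, n = 3, adjusted p = 0.191). In the pools of 3 alone Ddit4 rose and Nupr1 and Mthfd2, a mitochondrial folate enzyme, fell, where 1.67% of all genes rose and 1.73% fell. Mthfd2 lay at the threshold (limma, adjusted p = 0.05 after rounding). Mthfd2 and Atf4 are not among the 4 members named by size of fetal change.

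The third list held regulators of insulin signalling and fasting around Trib3 and Akt. Of 21 genes 19 were measured, and 5 rose and 7 fell in the fetuses (median -0.11), against the same 11.5% and 14.4% of all genes. Irs2 and Pck1 were not analysed here. In the pools of 3 alone 3 rose and 1 fell, where 1.67% and 1.73% of all genes did. Igfbp1, a binding protein of insulin-like growth factors that insulin represses, rose to 1.16, 0.98 and 0.97 (mean 1.04 ± 0.10, SD, n = 3, adjusted p = 0.00425). G6pc, which releases glucose from glucose 6-phosphate, rose by 0.88 ± 0.23 (adjusted p = 0.00702). Irs1, an adaptor of the insulin receptor, fell to -0.81 ± 0.24 (adjusted p = 0.00825).

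In the mothers Ppargc1a, a coactivator of gluconeogenic genes, was the 1 gene past 2-fold upwards, at 1.24, out of 18 measured on both arrays. Another 1 was past it downwards, where 0.978% of all genes were past it upwards and 1.15% downwards. G6pc read -0.49 and Igfbp1 0.23. The maternal response was lower than the fetal for both, by -1.37 (adjusted p = 0.0317) and -0.81 (adjusted p = 0.0366). It was higher for Pdpk1, the kinase that activates Akt, by 0.75 (adjusted p = 0.0497) and for Crtc2, a CREB coactivator, by 0.66 (adjusted p = 0.0462). Among all genes 1.78% passed with the maternal response higher and 1.91% with it lower. Ppargc1a, Pdpk1 and Crtc2 were named after their values were seen.

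The fourth list held 18 genes of lipid synthesis and lipoprotein export of the kind known to respond to Trib1. In the fetuses 12 fell, where 14.4% of all genes did, and 1 rose, where 11.5% did. The latter was Pklr, the liver pyruvate kinase, at 0.31 ± 0.06 (adjusted p = 0.0136). The median was -0.35. In the pools of 3 alone 4 fell and 0 rose, where 1.73% and 1.67% of all genes did. Scd1, the stearoyl-CoA desaturase, fell to -1.48, -1.34 and -1.17 (mean -1.33 ± 0.15, SD, n = 3, adjusted p = 0.00425). Pnpla3, a lipid droplet protein, fell to -1.28 ± 0.31 (adjusted p = 0.00615), Elovl6, a fatty acid elongase, to -1.18 ± 0.37 (adjusted p = 0.00827) and Fasn, the fatty acid synthase, to -0.87 ± 0.15 (adjusted p = 0.00477).

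In the mothers the list's median was -0.36. A part of Trib1 in the values of this list was not tested in either tissue. Of the 18 genes 1 was past 2-fold downwards, Scd1 at -2.30, and 0 upwards, where 1.15% and 0.978% of all genes were. Fasn read -0.64, Elovl6 -0.69 and Pnpla3 -0.93. The maternal minus fetal difference passed for 4 genes, where 3.7% of 18914 genes passed, 1.78% with the maternal response higher and 1.91% with it lower. It was -0.97 for Scd1 (adjusted p = 0.0373) and -0.75 for Elovl5, a fatty acid elongase (adjusted p = 0.029). It was 0.88 for Gpam, the first enzyme of glycerolipid synthesis (adjusted p = 0.0213), and 0.71 for Dgat1, which makes triglycerides (adjusted p = 0.0441). Pklr, Elovl5, Gpam and Dgat1 were named after their values were seen.

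**Figure D3:**
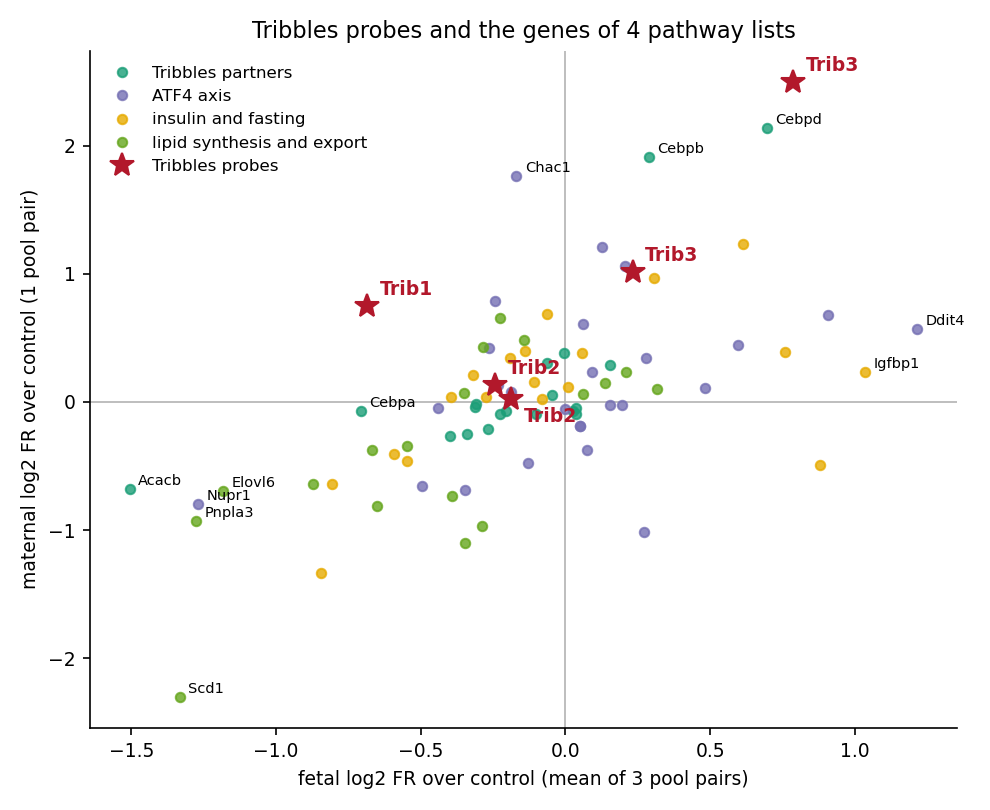
Mean fetal log2 ratio of FR over control over 3 pool pairs (x axis) against the maternal log2 ratio of 1 pool pair (y axis), for the Tribbles probes (stars) and the measured genes of the 4 pathway lists (dots, coloured by list). Trib3, Cebpd and Cebpb lie above 0 in both tissues and Scd1 and Acacb below 0 in both, while Trib1 lies at -0.69 and 0.75.

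Fetal liver on gestation day 18 still makes blood cells, and markers of these moved with FR in the same pools in which Trib1 and Trib2 fell. In such bulk samples, fewer cells of a type and less RNA per cell cannot be told apart. The counts of markers are to be read against the 14.4% of all genes that fell and the 11.5% that rose. Of 9 markers of B-lineage cells 7 fell and 0 rose, and their summed level on the linear scale under FR was 0.508, 0.423 and 0.611 of the control level in the 3 fetal pool pairs. Of 11 granulocyte markers 9 fell (0.654, 0.616 and 0.69), and of 6 eosinophil and basophil markers 4 fell (0.31, 0.759 and 0.563). Of 7 hepatocyte markers 5 fell (0.913, 0.65 and 0.773). In the pools of 3 alone, 1.73% of all genes fell. There 3 B-lineage, 5 granulocyte, 3 eosinophil and basophil and 1 of the hepatocyte markers fell. Their part in the values of Trib1 and Trib2 was not tested.

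Of 7 erythroid markers 1 fell in the fetuses, with summed ratios of 1.49, 1.56 and 0.981, and of 12 Kupffer cell and macrophage markers 2 rose and 3 fell, with summed ratios between 1.02 and 1.1. For blood progenitors 1 of 8 rose and 1 fell, and 2 fell of 7 endothelial, of 6 stellate and of 6 bile duct markers. All markers were well above background in the fetal pools.

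In control mothers the summed level of the B-lineage markers was 2050, against 17400 to 18300 in control fetuses, and that of the granulocyte markers 3720 against 375000 to 397000. There 4 of 9 and 4 of 11 were not well above background. The maternal summed ratios were 0.857 and 1.04. Of 7 hepatocyte markers 0 were past 2-fold on both maternal arrays (summed ratio 0.864). Of 12 Kupffer cell and macrophage markers 2 were past it downwards, Adgre1 at -1.15 and Clec4f at -1.28 (summed ratio 0.721), and of 6 erythroid markers read on both arrays 1 was, the transferrin receptor gene Tfrc at -1.46 (summed ratio 0.584), where 1.15% of all genes were. These 3 were named after their values were seen.

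To show what else on the array had the same profile, genes were ranked by the Euclidean distance of their log2 ratios over the 4 pool pairs from the brightest probe of each Tribbles gene, among 16222 named genes. Nearest to Trib3 were Tef (distance 0.32), a PAR bZIP transcription factor of circadian output, Cebpd (0.40), Slc35g1 (0.49), Sult1e1 (0.51), the estrogen sulfotransferase, and Npc1 (0.53), a lysosomal cholesterol transporter. Tef read 2.31 in the mothers and 0.67, 0.65 and 0.67 in the fetal pool pairs, and the 5 genes were between 2.08 and 2.60 in the mothers.

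Nearest to Trib1 were Il17rb (0.29), a cytokine receptor chain, Itpka (0.33), an inositol trisphosphate kinase, Eno1 (0.35), the glycolytic enolase, Lpcat3 (0.36), which remodels phospholipids, and Stbd1 (0.38), a glycogen-binding protein. The 5 genes read from 0.58 to 1.05 in the mothers. Genes this near to Trib1 share its sign in every pool pair by the way they were picked. Nearest to Trib2 were Csk (0.03), a kinase that holds Src kinases inactive, Atf4 (0.04), Mmp25 (0.06), Apol10a (0.07) and Tmem267 (0.07). Since small ratios lie close to each other, these distances are short for many genes. A likeness over 4 values, 1 of which for Trib3 comes from 1 array, is a description of these pools.

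**Figure D4:**
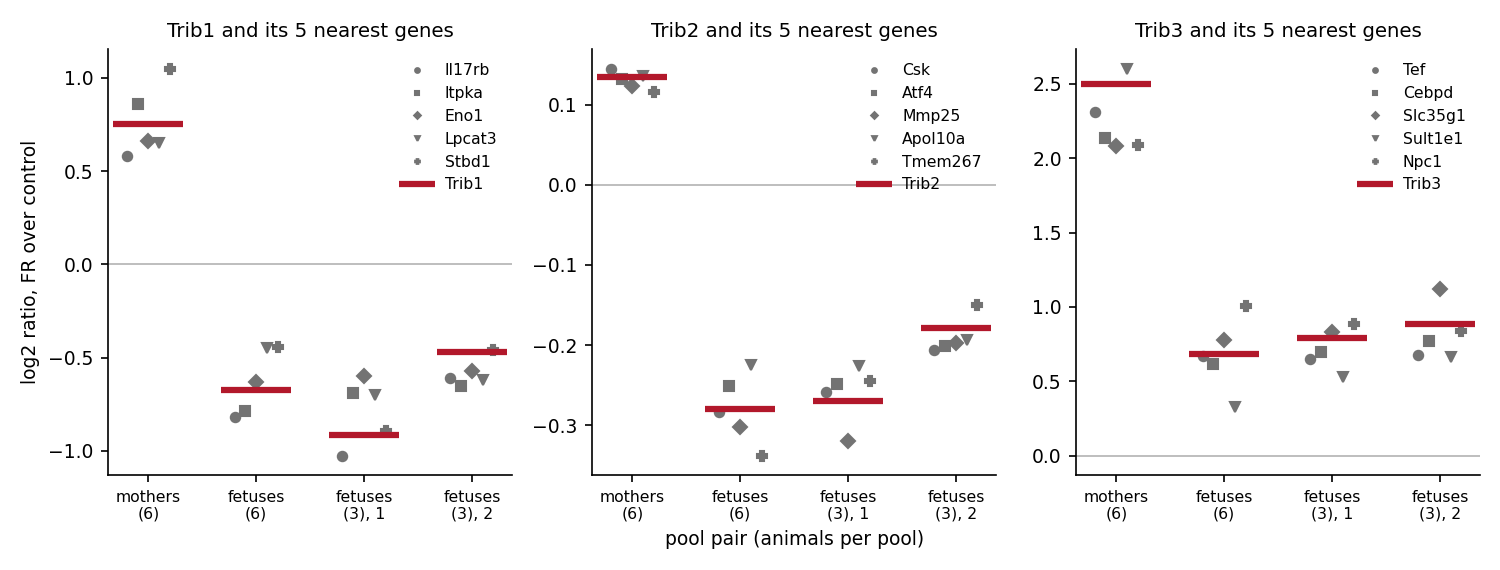
Log2 ratio of FR over control (y axis) in each pool pair (x axis, with the number of animals per pool) for each Tribbles gene (red bar) and the 5 genes nearest to it (grey symbols). The y axes differ, and the genes were picked for nearness over these same values, so those near Trib1 share its signs by selection.

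The values were recomputed under other choices of background correction, normalization, spot and probe filters, pool pairs and fit. The brighter Trib3 probe kept its fetal rise in all 12 of these settings, between 0.68 and 0.93. In the limma fits on pool pairs its adjusted p-values were between 0.00278 and 0.0474. The limma fit on 6 single arrays, with the pool pair as a random block, gave 4.25e-05, but arrays of a pair read the same pools. Trib1 stayed between -0.81 and -0.57 in the 11 settings that gave it a value, past the threshold in 10. The brighter Trib2 probe stayed between -0.32 and -0.22, past the threshold in 9 of 12. The maternal minus fetal difference of Trib1 was between 1.33 and 1.55 in the settings that gave it a value.

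**Figure D5:**
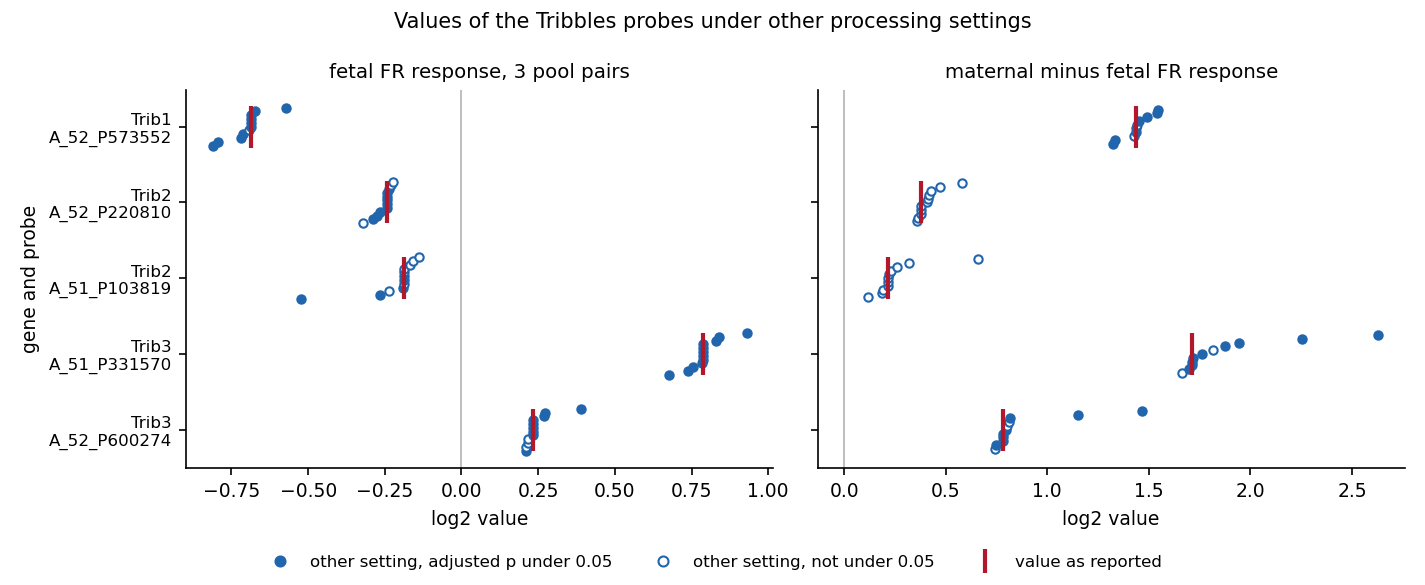
Log2 values (x axis) of the 5 Tribbles probes (y axis) as reported (red bar) and under other processing settings (circles, filled where the adjusted p was under 0.05). The left panel holds the fetal response to FR over 3 pool pairs and the right panel the maternal minus fetal response, and no circle lies on the other side of 0 from its bar.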

How the data were processed

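The deposited scanner files hold intensity values in Cy3 and Cy5 per spot, with local background and flags, from Agilent Feature Extraction 9.5.3.1 per the submitters' processing notes; the file headers give 9.5.3.1 for slide 1 and 11.0.1.1 for slide 2. The deposited value table holds log10 ratios of Cy5 over Cy3, not turned for the dye exchange, which matched the log10 ratios of the processed signals within 5e-08, with medians from -0.0218 to 0.0126. It was not used further.

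Spot means (slide 1) or medians (slide 2, which gives no means) were analysed with limma 3.58.1 in R 4.3.3. Background was corrected with normexp (offset 50), arrays were loess-normalized (control spots had weight 0), and log2 ratios were turned to FR over control. Levels are single-channel log2 values after Aquantile scaling. Population outliers and spots non-uniform in Cy5 were left out, and spots non-uniform in Cy3 were kept. Spots of a probe were averaged, and a dye exchange of 2 arrays counted as 1 replicate, by its mean. A probe was kept if well above background for 1 diet, or for levels in 1 tissue, on every array of that comparison. Tests used lmFit and eBayes with Benjamini-Hochberg adjustment over all probes (threshold 0.05). The fits were also run on simulated ratios in which maternal and fetal pools had the same spread. Such a run cannot test whether they have it in these data. Genes in lists were read from their brightest probe. RefSeq accessions gave the gene of 26918 of 41174 probes, current symbols that of 5082 and older symbols that of 817; the other 8357 kept the name in the file. The array descriptions also hold text on rat hippocampus and call exchanged arrays Pool 2; the titles were followed, so the number of pool pairs rests on them. Precision is limited by there being 4 pool pairs on 8 arrays.

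The Tribbles genes, the lists and the tests were chosen with earlier results of these data known. The text names every Tribbles probe, up to 4 members of each pathway list by size of fetal change, and the 5 genes nearest to each Tribbles gene by profile; some genes that this rule or the counts include are not reported here.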

Additional observations from a re-analysis of the deposited data

Results flagged for a closer look

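The response to FR differed between mothers and fetuses for 3 Tribbles probes in a test of the difference itself. The maternal log2 ratio exceeded the fetal mean by 1.71 for the brighter Trib3 probe (A_51_P331570), by 0.78 for the dimmer Trib3 probe (A_52_P600274) and by 1.44 for Trib1 (A_52_P573552). The value of the brighter Trib3 probe has its maternal part from 1 array, with FR in Cy5, while its fetal part averages both dye orientations. Trib1 had no value in this test when spots non-uniform in Cy3 were left out. All 3 calls were lost without the fetal pools of 6 (adjusted p = 0.0932, 0.133 and 0.136) and with slide as a fixed block (0.141, 0.234 and 0.225), fits in which 0 probes of the array passed (limma; 4518 and 3238 at an unadjusted p under 0.05). For Trib1 the signs were opposite, with both maternal arrays above 0 and all 6 fetal arrays below it. The share of all probes with such signs was not counted.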

How the results depend on the processing

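Probes past the threshold in the fetal test of 3 pool pairs numbered 7831 (43.4% of them higher), 5024 with Cy3 non-uniform spots left out, 4590 without loess (25.2% higher) and 1083 to 7043 without one pool pair. In the pools of 3 they numbered 1083, 2613 with an offset of 10, 4053 without loess, 2009 without the filter on dim probes and 0 with processed signals (limma; 9041 at an unadjusted p under 0.05). Maternal probes past 2-fold numbered 566, 1320 with processed signals, 351 without Cy3 non-uniform spots, 171 without loess and 1790 at 1.5-fold. The maternal minus fetal response had 879, 1982 with processed signals, 384 without Cy3 non-uniform spots, 265 without loess, 0 with slide as a fixed block (3238 at an unadjusted p under 0.05) and 0 to 1237 without one fetal pool pair. The control level had 9934 (52.4% higher in mothers), 5954 without Cy3 non-uniform spots, 20317 without scaling between arrays (6.17% higher) and 5413 to 15789 without one fetal pool. The causes were not tested.

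Trib1 passed in the pools of 3 with an offset of 10 and without loess (both -0.72). Without one fetal pool pair its fetal value was -0.79 to -0.57, its maternal minus fetal response 1.33 to 1.55 (1.43 with slide as a fixed block) and its control level difference 0.79 to 0.92. That difference was 0.83 with processed signals and -0.13 without scaling. For the brighter Trib2 probe the fetal value was -0.32 without loess and -0.27 to -0.22 without one pool pair, and the level difference -1.69 without scaling and -0.85 with slide as a block. The brighter Trib3 probe missed the threshold in the pools of 3 with processed signals (0.96). Its maternal minus fetal response was 1.66 to 1.76 without one fetal pool pair and 1.82 with slide as a block. Its level difference was -0.97 without scaling, -0.095 with non-uniform spots of either dye kept and 1.90 in the FR channels, and its maternal ratio was 3.04 with those spots kept. The level difference of the dimmer Trib3 probe turned to 0.61 in the FR channels and 0.095 with slide as a block, and that of the other Trib2 probe to 0.078 and 0.011.

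No fetal, maternal or maternal minus fetal response of a Tribbles probe changed sign in any setting. The block for slide, the spot median on slide 1 and the setting that kept every non-uniform spot were chosen after seeing the data. Slide as a random block was not run, since 3 pool pairs gave no correlation estimate. The 6 fetal arrays with the pool pair as a random block (correlation 0.413) kept the calls of both Trib3 probes, of Trib1 and of the brighter Trib2 probe. Mothers and fetuses could not be paired, since there is 1 maternal pool pair and the labels do not link fetal pools to mothers. FR and control are already paired on each array. Low signal over background limits the dimmer probes of Trib2 and Trib3, and 3 fetal and 1 maternal pool pair limit every test.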
